A study of Mus musculus with 12 samples.

Results

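A set of 10 genes that mark resident liver macrophages (Kupffer cells) was followed in the livers of control and anemic mouse pups, namely Clec4f, Cd209f, Marco, Vsig4, Fcna, Timd4, Cd5l, Folr2, Id3 and Nr1h3. These 10 of the 32285 genes in the count tables were chosen by name, and all 10 were matched by gene symbol and passed the filter on low counts in C1q-positive cells. The study compared 6 control and 6 anemic C57BL/6 pups, with 1 single-cell RNA-seq (scRNA-seq) library of the whole dissociated liver per mouse. Anemic pups lost 20 µL of blood per g body weight by facial vein phlebotomy on every second day from postnatal day 2 to 10, control pups from the same litters had a needle stick without blood removal, and livers were taken on postnatal day 11. The labels name no transgene and no deletion. In this method every captured mRNA molecule is counted once as a unique molecular identifier (UMI) within a cell barcode.

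Kupffer cells line the liver sinusoids and are seeded before birth. They clear bacteria, complement-coated particles, apoptotic cells and worn red blood cells, and in the young liver they accompany red cell formation and recycle iron. Their identity depends on signals from neighbouring endothelial and stellate cells, among them ligands of the BMP, TGF-beta, Notch and CSF1 receptors, and on nuclear factors such as Id3 and the liver X receptor alpha, the product of Nr1h3.

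C1q-positive cells were cells in which C1qa, C1qb and C1qc, which encode the complement component C1q made by tissue macrophages, together held at least 3 UMIs and at least 0.2% of all UMIs. None of the 10 genes was used for this choice. The rule gave 22797 C1q-positive cells among 206146 kept cells, 12591 of 98075 in control and 10206 of 108071 in anemic mice, with 1243 to 2394 per mouse. The macrophage receptor genes Csf1r and Adgre1 were at 824 to 1220 and 598 to 1240 UMIs per 1000000 UMIs in these cells over the 12 mice. Other classes were gated in the same way on their own markers. A level is the UMI count of a gene per 1000000 UMIs of a class in 1 mouse, written CPM, and a change is the log2 fold change of anemia over control with its SE.

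The libraries held 46252146 to 74545930 UMIs, and the median C1q-positive cell of a mouse had 4462 to 6622 UMIs. The mice named anemia 2 and anemia 3 stood apart from the other 10 in C1q-positive cells. Both lay below the other 10 mice for 3389 of 15833 genes tested (21.4%) and above them for 995 (6.28%). Of their C1q-positive cells, 34.8% and 20.6% held a UMI of the proliferation genes Mki67 or Top2a, against 7.19% to 17.0% in the other mice. These shares were not taken at equal depth. The median C1q-positive cell had 6572 and 6622 UMIs in these mice and 4462 to 6102.5 in the other 10. The sum of 8 proliferation genes was high in anemia 2 alone, at 1336 CPM, beside 654 in anemia 3 and 569 to 1186 in the others. Monocyte-gated cells made up 14.5% of kept cells in anemia 2 and 3.84% in anemia 3, against 0.707% to 1.72% in the others. In C1q-positive cells, 14 monocyte-derived macrophage genes summed to 2074 and 1403 CPM in these mice, to 954 to 1095 in the other 4 anemic mice and to 524 to 804 in controls. Fabp5, a lipid carrier gene and 1 of the 14, was a large part of the sum in the other 4 anemic mice, at 408 to 456 CPM. It was at 237 and 262 in anemia 2 and anemia 3, the lowest anemic values, and at 147 to 228 in controls. In anemia 2 and anemia 3 the monocyte gene Ccr2 reached 26.2 and 16.3, against 2.66 to 12.7 in the other 10 mice. The part of these measures in the results below was not tested. The fits for the 10 genes in C1q-positive cells are also given without both mice, and for other results calls that are lost or gained without them are named. Sex, read from Xist and Y-linked genes, was female in 4 of 6 control and 2 of 6 anemic mice.

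Stretches before the start sites of 4 of the genes are shown because these genes went different ways in anemia 2 and anemia 3, where Clec4f and Cd209f were low, Marco was high and Timd4 stayed within the range of the other 10 mice. The sequences are from RefSeq on GRCm38.p6, 5′ to 3′ on the strand of the gene, and capitals mark the core GAGGAA of the macrophage factor PU.1 or the core TGCTGA of MAF factors, on either strand. Bases that GENCODE M21 places inside the gene were left off, which shortened the Clec4f and Cd209f windows from 250 to 179 bases.
Clec4f (chr6:83656188-83656366, minus strand): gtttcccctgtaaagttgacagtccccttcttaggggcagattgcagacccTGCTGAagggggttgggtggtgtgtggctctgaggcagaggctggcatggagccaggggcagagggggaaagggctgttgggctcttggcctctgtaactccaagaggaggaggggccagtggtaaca
Cd209f (chr8:4105836-4106014, minus strand): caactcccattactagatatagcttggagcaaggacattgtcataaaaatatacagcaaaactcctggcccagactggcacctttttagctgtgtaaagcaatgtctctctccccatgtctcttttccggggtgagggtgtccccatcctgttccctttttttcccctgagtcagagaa
Marco (chr1:120505025-120505274, minus strand): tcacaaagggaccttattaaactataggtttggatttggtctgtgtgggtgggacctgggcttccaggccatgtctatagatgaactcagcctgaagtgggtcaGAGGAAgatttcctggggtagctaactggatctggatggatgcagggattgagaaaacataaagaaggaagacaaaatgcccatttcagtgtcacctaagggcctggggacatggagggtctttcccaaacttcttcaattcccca
Timd4 (chr11:46810549-46810798, plus strand): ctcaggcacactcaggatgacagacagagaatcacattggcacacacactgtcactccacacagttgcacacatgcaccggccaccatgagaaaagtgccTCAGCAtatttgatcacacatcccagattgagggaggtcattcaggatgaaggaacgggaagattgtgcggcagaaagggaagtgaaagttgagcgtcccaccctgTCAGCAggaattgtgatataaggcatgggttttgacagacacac
In the full windows of 250 bases, the PU.1 core was found for 5 of the 10 genes (Vsig4, Cd5l, Marco, Fcna and Id3) and in 23.3% of 32851 promoter windows. The MAF core was found for 5 genes (Clec4f, Cd5l, Timd4, Folr2 and Fcna) and in 16.1% of windows. The 10 genes had 12 windows, and a gene was counted if any of its windows matched, whereas the percentages are per window. These matches are a description of the letters only.

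C1q-positive cells made up a smaller share of the kept cells in anemic mice. The share ranged from 10.2% to 14.5% in controls and from 7.91% to 13.1% in anemic mice, and only anemia 2 lay within the control range. The means were 12.8% ± 1.67 and 9.45% ± 1.92 (SD, n = 6), and the difference was larger than the spread between mice (exact two-sided permutation test, p = 0.0130). With erythroid cells left out of the denominator the shares were 13.9% ± 1.92 and 12.2% ± 1.42, and the difference missed the threshold (exact permutation p = 0.115). Erythroid-gated cells made up 1.38% to 13.6% of kept cells in controls and 9.33% to 30.7% in anemic mice.

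None of the 10 genes passed the test between the groups in C1q-positive cells of all 12 mice (edgeR quasi-likelihood test, Benjamini-Hochberg adjusted p under 0.05 over all genes tested), where 406 of 15833 genes (2.56%) passed. DESeq2 also called none of the 10, with 6.65% of all genes called, and limma voom called 1, Cd209f, with 3.67%. At an unadjusted p under 0.05, Cd209f and Id3 passed, against 20.7% of all genes. The median log2 fold change of the 10 genes was −0.27, beside 0.03 over all genes tested. Without anemia 2 and anemia 3, Cd209f passed and the other 9 did not, and 3.0% of all genes passed. The level in each mouse divided the genes into those that were far off in anemia 2 and anemia 3, Cd209f, which was also low in the other 4 anemic mice, and Timd4, Cd5l and Nr1h3, which were not below the other 10 mice in either.

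**Figure D1:**
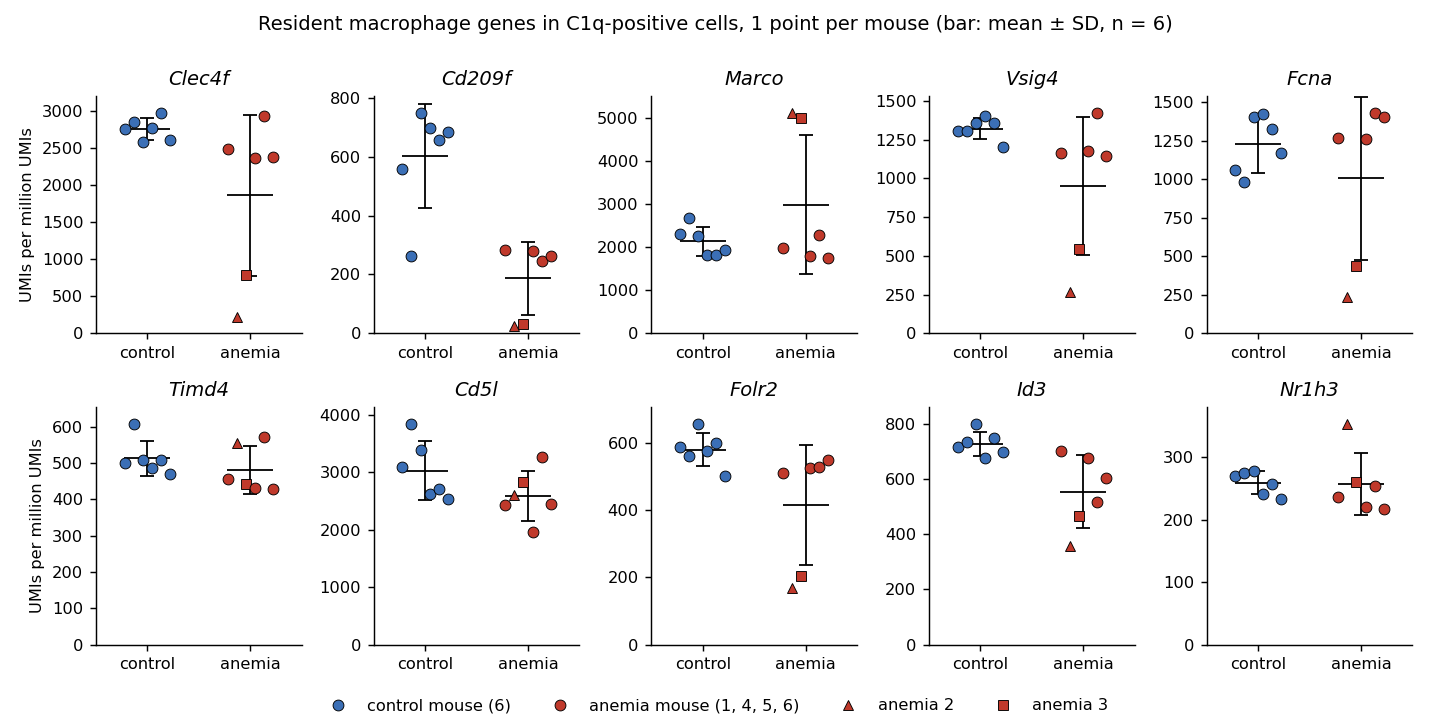
Level of each gene in C1q-positive cells, in CPM, with 1 point per mouse and mean ± SD (n = 6) as bars. Anemia 2 (triangle) and anemia 3 (square) lie below the other 10 mice for Clec4f, Cd209f, Vsig4, Fcna, Folr2 and Id3 and above them for Marco, and for Cd209f the other 4 anemic mice lie below 5 of the 6 controls.

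Among the lectins and scavenger receptors, Clec4f encodes a galactose-binding C-type lectin that is used as a Kupffer cell marker (ENSMUSG00000014542, chromosome 6, 83644542 to 83656187). Its level in controls was 2572 to 2965 CPM (median 2758). In anemia 1, 4, 5 and 6 it was 2366 to 2926, which overlaps the controls. In anemia 2 it was 221 and in anemia 3 it was 791, so these mice stood at 0.0802 and 0.288 times the control mean. Over 6 anemic mice the level was 1862 ± 1085 (SD) and the fitted change −0.51 ± 0.41 (edgeR adjusted p = 0.498), and without both mice the change was −0.07 ± 0.09 (adjusted p = 0.698).

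The low Clec4f of these mice was seen both as fewer cells with the transcript and as fewer UMIs per cell. At an equal depth of 2000 UMIs per cell, 91.4% to 94.7% of C1q-positive cells carried Clec4f in controls and 78.2% to 90.3% in anemia 1, 4, 5 and 6. The share was 23.5% in anemia 2 and 60.6% in anemia 3. The median cell with at least 2000 UMIs held 25.6 to 28.0 Clec4f UMIs per 10000 UMIs in controls, 0 in anemia 2 and 6.10 in anemia 3. In cells with at least 1 Clec4f UMI, a choice that itself uses Clec4f, the level was 390 and 945 CPM in these mice and 2546 to 3068 in the others. Among cells with at least 1 UMI of Timd4, the apoptotic cell receptor, Clec4f was 272 in anemia 2 and 859 in anemia 3, against 2480 to 3048 in the other 10 mice.

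Marco, which encodes a scavenger receptor for bacteria and particles (ENSMUSG00000026390, chromosome 1, 120474538 to 120505024), went the opposite way in these mice. It was at 1820 to 2679 CPM in controls (median 2095) and at 1749 to 2274 in anemia 1, 4, 5 and 6. It reached 5109 in anemia 2 and 4992 in anemia 3, which is 2.39 and 2.34 times the control mean. The fitted change was 0.63 ± 0.32 (edgeR adjusted p = 0.280), and −0.09 ± 0.13 without both mice (adjusted p = 0.744). The share of cells carrying Marco at equal depth was 79.0% in anemia 2 and 88.1% in anemia 3, beside 81.6% to 87.5% in controls, so the share in both mice was near the control range. The median cell held 43.3 and 47.6 Marco UMIs per 10000 in these mice and 11.4 to 21.04 in the other 10.

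**Figure D2:**
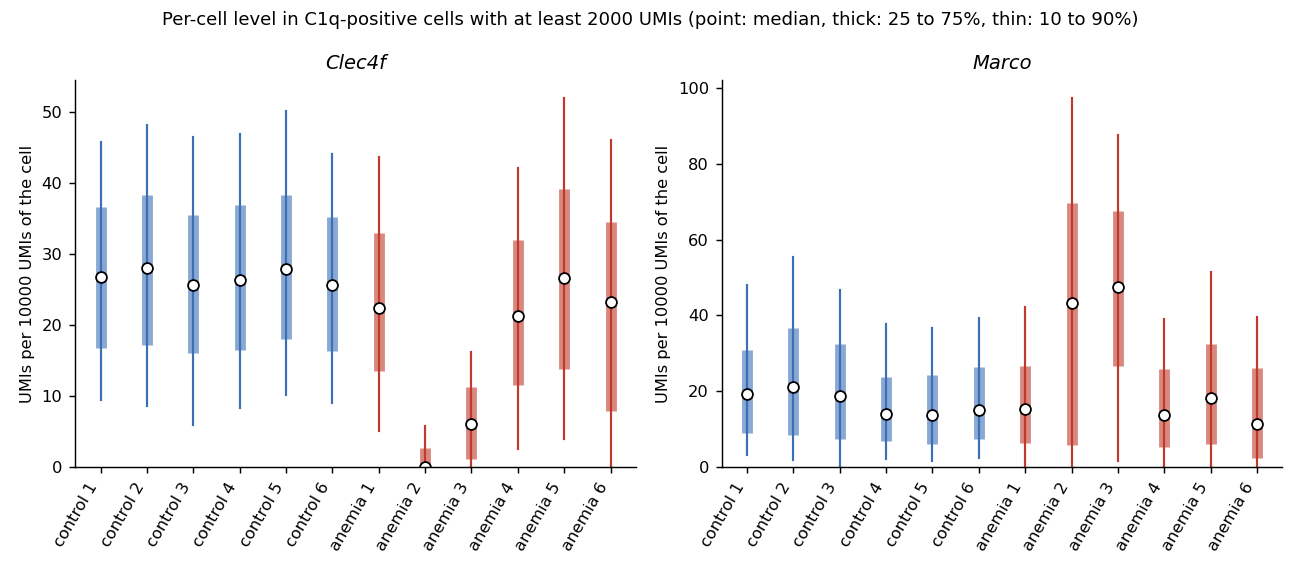
Clec4f and Marco UMIs per 10000 UMIs of each C1q-positive cell with at least 2000 UMIs, by mouse (point: median, thick bar: 25th to 75th percentile, thin bar: 10th to 90th percentile). In anemia 2 the median cell holds no Clec4f UMI, and in anemia 2 and anemia 3 the median for Marco lies above the medians of the other 10 mice.

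Cd209f, a C-type lectin of the DC-SIGN family (ENSMUSG00000051906, chromosome 8, 4102787 to 4105835), was the gene with the largest fitted change of the 10. Its level was 264 to 748 CPM in controls (median 669), where control 2 was the lowest and the next was 559. It was 246 to 283 in anemia 1, 4, 5 and 6, 25.2 in anemia 2 and 31.8 in anemia 3. All 6 anemic mice lay below 5 of the 6 controls, and control 2 lay inside the range of the anemic mice. The fitted change was −1.62 ± 0.51 (edgeR adjusted p = 0.0977). Without anemia 2 and anemia 3 it was −1.12 ± 0.21 and Cd209f fell (adjusted p = 0.0126). That fit did not include sex. Anemia 1, 5 and 6 were male and anemia 4 female, and control 1 and control 2 were the male controls. With sex as a covariate over all mice the change was −1.55 ± 0.59 and did not pass (edgeR adjusted p = 0.161). At equal depth, 26.8% to 53.2% of C1q-positive cells carried it in controls, 24.2% to 28.0% in the 4 anemic mice, 3.74% in anemia 2 and 4.69% in anemia 3. Cd209f has close paralogs, among them Cd209g, and reads that match several of them may be split or lost in the counting.

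Vsig4 and Fcna act with complement. Vsig4 encodes a receptor for C3 fragments that lets Kupffer cells catch coated bacteria (ENSMUSG00000044206, chromosome X, 96247203 to 96293438). It was at 1203 to 1406 CPM in controls (median 1329), at 1148 to 1421 in anemia 1, 4, 5 and 6, at 265 in anemia 2 and at 542 in anemia 3. The fitted change was −0.40 ± 0.27 (edgeR adjusted p = 0.421), and −0.06 ± 0.08 without both mice (adjusted p = 0.719). Fcna encodes ficolin A, a secreted lectin that starts the lectin pathway (ENSMUSG00000026938, chromosome 2, 25624666 to 25628030). It was at 982 to 1424 in controls (median 1248) and at 1260 to 1429 in anemia 1, 4, 5 and 6, whereas anemia 2 was at 234 and anemia 3 at 439. Its fitted change was −0.22 ± 0.33 (adjusted p = 0.729) and turned to 0.17 ± 0.10 without both mice (adjusted p = 0.360).

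For Timd4 and Cd5l, the levels of anemia 2 and anemia 3 lay within the range of the other 10 mice, whereas the shares of cells carrying them were mostly lower. Timd4 encodes a phosphatidylserine receptor that binds apoptotic cells (ENSMUSG00000055546, chromosome 11, 46810800 to 46844332). It was at 471 to 606 CPM in controls (median 504), 554 in anemia 2, 443 in anemia 3 and 428 to 573 in the other 4 anemic mice. Its fitted change was 0.01 ± 0.12 (edgeR adjusted p = 0.968), and −0.08 ± 0.11 without both mice (adjusted p = 0.727). At 2000 UMIs per cell it was carried by 49.3% and 51.0% of C1q-positive cells in anemia 2 and anemia 3 and by 52.8% to 65.8% in the other 10 mice. Cd5l encodes a secreted scavenger protein of macrophages (ENSMUSG00000015854, chromosome 3, 87357881 to 87371073). It was at 2532 to 3833 in controls (median 2905), 2598 in anemia 2, 2825 in anemia 3 and 1968 to 3274 in the others, with a change of −0.12 ± 0.16 (adjusted p = 0.683), and −0.22 ± 0.16 without both mice (adjusted p = 0.476). Cd5l was carried by 71.2% of cells in anemia 2, 86.3% in anemia 3 and 85.1% to 95.9% in the others. These p-values do not show that the levels were equal.

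Folr2, the folate receptor beta of tissue macrophages (ENSMUSG00000032725, chromosome 7, 101839988 to 101857194), was at 503 to 655 CPM in controls (median 581) and 510 to 550 in 4 anemic mice. It was at 169 in anemia 2 and 203 in anemia 3. The fitted change was −0.42 ± 0.24 (edgeR adjusted p = 0.335), and −0.09 ± 0.07 without these mice (adjusted p = 0.534).

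Of the nuclear factors, Id3 encodes an inhibitor of helix-loop-helix proteins (ENSMUSG00000007872, chromosome 4, 136143497 to 136145755). It was at 674 to 797 CPM in controls (median 724), 517 to 701 in anemia 1, 4, 5 and 6, 356 in anemia 2 and 464 in anemia 3, so that 4 of 6 anemic mice lay below all controls. The change was −0.31 ± 0.12 (edgeR adjusted p = 0.177), and −0.18 ± 0.09 without both mice (adjusted p = 0.294). Nr1h3, which encodes the liver X receptor alpha (ENSMUSG00000002108, chromosome 2, 91184061 to 91202834), was at 233 to 278 in controls (median 264). It was 353 in anemia 2, 261 in anemia 3 and 217 to 254 in the others, and its change was 0.10 ± 0.14 (adjusted p = 0.710), and −0.12 ± 0.08 without both mice (adjusted p = 0.461).

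**Figure D3:**
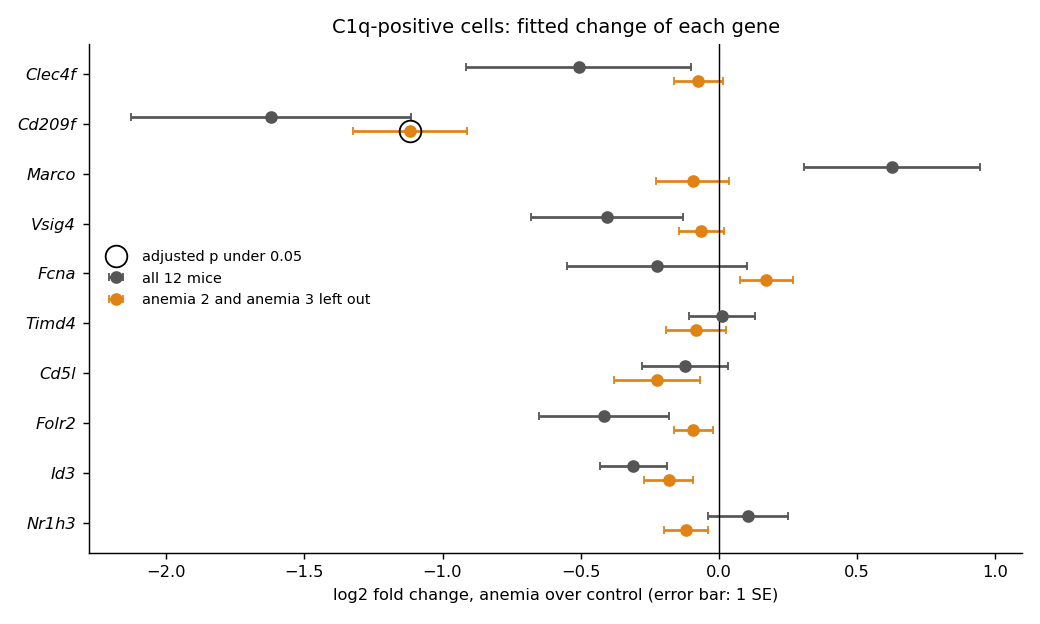
Fitted log2 fold change of each gene in C1q-positive cells (x axis, anemia over control, error bar 1 SE), with all 12 mice and without anemia 2 and anemia 3. Only Cd209f without both mice has an adjusted p under 0.05 (circled), and the values of the other genes move towards 0 or across it, except for Cd5l.

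The share of C1q-positive cells that carried Clec4f was lower in all anemic mice than in any control at both depths examined, and for 4 more genes this separation was seen at 1 depth. After thinning to 2000 UMIs per cell, which used 9521 control and 7583 anemic cells and left out 3070 and 2623 shallower ones, all 6 anemic mice lay below all 6 controls for Clec4f, Vsig4, Cd5l, Folr2 and Id3. These are 5 of the 10 genes, and among 15830 genes tested 2.66% had no overlap in this direction. For Vsig4 the shares were 82.4% to 84.98% in controls and 69.9% to 80.3% in anemia 1, 4, 5 and 6, with 27.9% in anemia 2 and 51.9% in anemia 3. For Id3 they were 67.0% to 69.7% in controls and 43.3% to 65.6% in anemic mice. For Cd5l they were 93.1% to 95.9% and 71.2% to 92.7%. For Folr2 the margin was small, with 59.9% as the lowest control and 59.0% as the highest anemic mouse. At 1000 UMIs per cell, Clec4f alone of the 10 genes had no overlap, against 2.86% of all genes. At this depth 5 of 6 anemic mice lay below all controls for Vsig4, Cd5l and Id3 and 4 of 6 for Folr2. Leaving out both mice cannot undo a separation, so for these 5 genes it is not a further check. With both left out Marco joined the 5 genes at 2000 UMIs, against 3.97% of all genes without overlap. No other of the 10 genes joined Clec4f at 1000 UMIs, against 4.2%. At 2000 UMIs the separation held with the C1q cut doubled, for Folr2 only just (lowest control 62.32%, highest anemic mouse 62.29%). With cells that passed a second gate left out, it held for Clec4f, Vsig4, Cd5l and Id3 but not for Folr2. The share of all genes without overlap was not taken with these changed gates. Cells with no UMI of any of the 10 genes at this depth made up 0.497% to 1.34% in controls, 1.17% to 2.84% in 4 anemic mice, 6.45% in anemia 2 and 3.50% in anemia 3. In B cells, which should lack it, 0.175% to 1.82% of cells per mouse carried Clec4f at 1000 UMIs.

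**Figure D4:**
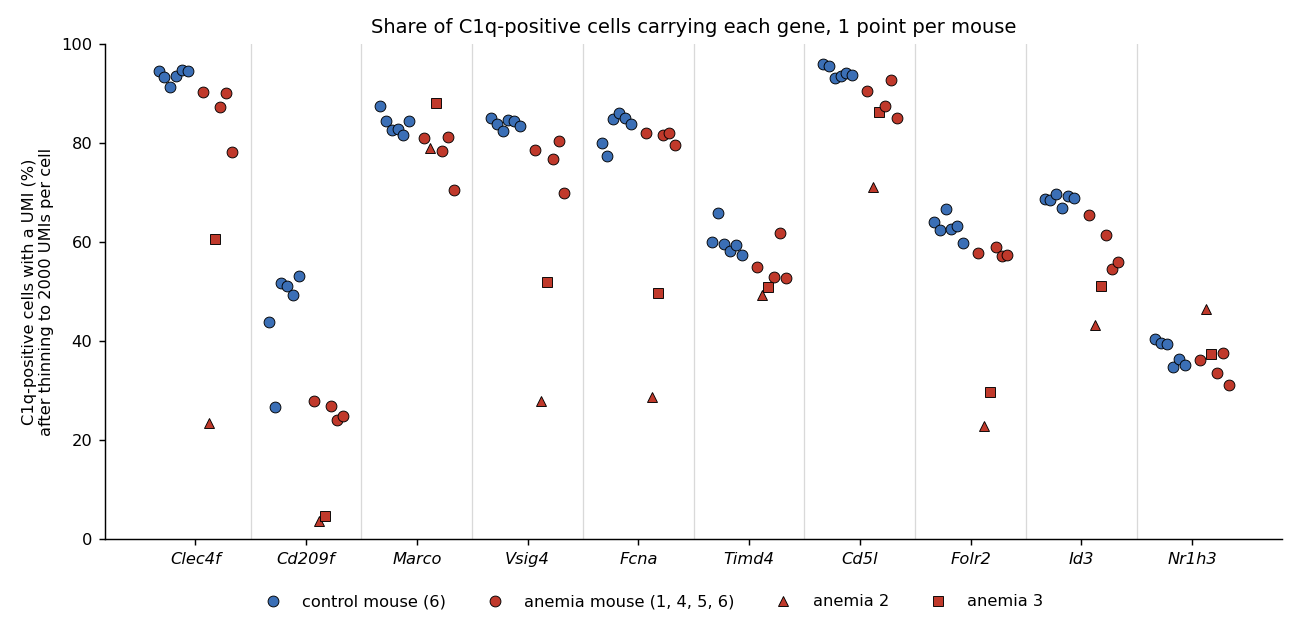
Percent of C1q-positive cells with at least 1 UMI of each gene, expected at 2000 UMIs per cell, with 1 point per mouse. Controls (blue) lie above all anemic mice (red) for Clec4f, Vsig4, Cd5l, Folr2 and Id3, and the groups overlap for Cd209f, Marco, Fcna, Timd4 and Nr1h3. At 1000 UMIs per cell the groups separate for Clec4f alone.

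The C1q-positive cells were then divided by Clec4f. Of 22797 cells, 3599 had no Clec4f UMI, which was 5.17% to 10.5% of C1q-positive cells in controls, 9.26% to 18.1% in anemia 1, 4, 5 and 6, 61.2% in anemia 2 and 29.7% in anemia 3. Within the Clec4f-detected cells none of the other 9 genes passed the test (2.19% of all genes did), and Cd209f fell without anemia 2 and anemia 3 (−1.06 ± 0.20, edgeR adjusted p = 0.0141), where 3.08% of all genes passed. In these cells Marco was 6311 and 5422 CPM in anemia 2 and anemia 3, against 1846 to 2739 in the other 10 mice, and Vsig4 was 381 and 615 against 1209 to 1476. The low Vsig4 and high Marco of these mice were therefore also present among cells that held a Clec4f transcript. Within the cells without Clec4f none of the 9 genes passed either (0.722% of all genes did).

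Nearly all UMIs of most of these genes lay in C1q-positive cells. For Clec4f, Cd209f, Fcna, Folr2, Cd5l, Vsig4, Timd4 and Marco the share was 94.3% to 96.4% of the UMIs in all kept cells, beside 93.2% to 96.1% for the C1q genes themselves. Clec4f ranked first among 14809 genes with at least 1000 UMIs and Cd209f ranked 2. Nr1h3 had 86.5% of its UMIs there and ranked 54. Id3 had 35.7%, with 38.3% in endothelial cells, and ranked 1088.

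The 10 further genes with the highest share were Cd163, Ccl24, Cd209g, C6, Spic, Siglec1, Kcnj10, A530076I17Rik, Gm11523 and Gm49101, with 92.9% to 95.8%. Kcnj10, a potassium channel gene, was the gene among them that fell over all 12 mice (−0.53 ± 0.11, edgeR adjusted p = 0.0200), where 1.16% of all genes fell. It was at 31.2 to 37.9 CPM in controls and 18.6 to 25.8 in anemic mice, with no overlap, as for 2.49% of all genes. Cd209g, next to Cd209f in its gene family, had a pattern like it, with 54.6 in control 2, 147 to 205 in the other controls, 49.8 to 71.2 in 4 anemic mice and 3.21 and 3.17 in anemia 2 and anemia 3. Its change was −1.87 ± 0.63 (adjusted p = 0.121), and it fell by 1.31 ± 0.27 without both mice (adjusted p = 0.0226). Ccl24, an eosinophil-attracting chemokine gene, was at 673 to 846 in controls, 456 to 550 in 4 anemic mice and 54.4 and 196 in anemia 2 and anemia 3. It too fell without both mice (−0.49 ± 0.10, adjusted p = 0.0218), as did Kcnj10 (−0.62 ± 0.10, adjusted p = 0.00371), where 1.04% of all genes fell.

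In other classes, 6 of the genes were at the low percentages seen for the C1q genes, whose UMIs in other classes can come from free RNA in the droplets. The median level over 12 mice of Clec4f, Cd209f, Marco, Vsig4, Cd5l and Folr2 was 0.30% to 1.63% of that in C1q-positive cells, beside 0.48% to 2.24% for the C1q genes in the same 9 classes. Timd4 stood out in dendritic cells, where it was at 10.1 to 23.9 CPM, 3.21% of its C1q-positive level and above the C1q genes' percentage in 12 of 12 mice. Fcna in stellate cells was at 1.95% of its C1q-positive level and above the C1q genes' percentage in 11 of 12 mice, with a median ratio of 2.78 to them. Vsig4 in B cells and hepatocytes and Cd5l in hepatocytes also exceeded the C1q genes in 11 of 12 mice, with median ratios of 1.21, 1.39 and 1.31.

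**Figure D5:**
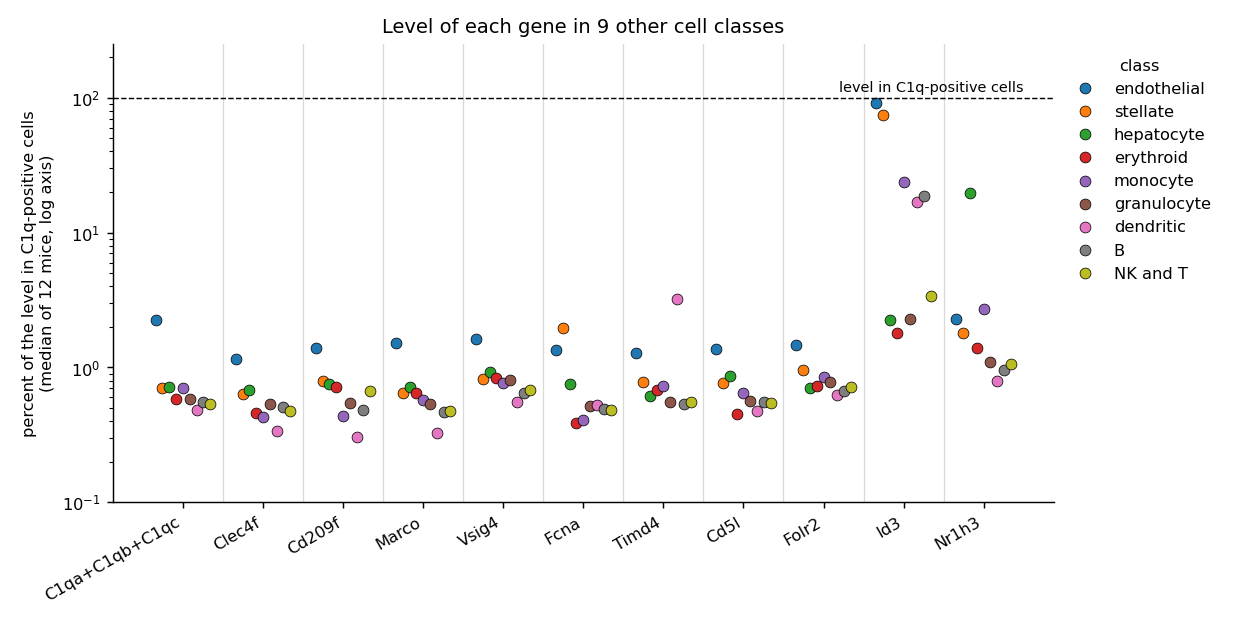
Median level over 12 mice of each gene in 9 other classes, as percent of its level in C1q-positive cells (log axis), with the summed C1q genes at the left. Most genes lie between 0.3% and 2.3% like the C1q genes. Id3 in several classes, Nr1h3 in hepatocytes and monocytes and Timd4 in dendritic cells lie higher.

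Id3 and Nr1h3 were expressed outside macrophages. Id3 was at 504 to 734 CPM in endothelial cells and 420 to 637 in stellate cells, ranges that overlap the 356 to 797 of C1q-positive cells. It was next in monocytes (92.5 to 227), dendritic cells (66.1 to 156) and B cells (77.1 to 141), which overlap one another, and lower in NK and T cells (12.6 to 29.9). Nr1h3 was at 36.7 to 68.7 in hepatocytes, 19.6% of its level in C1q-positive cells. In monocytes its median was 2.73% of that level, up to 9.66%. It exceeded the C1q genes' percentage in 11 of 12 mice in monocytes and granulocytes, with median ratios of 3.96 and 2.00. In B cells, NK and T cells and stellate cells it did so in 12 of 12 mice, with ratios of 1.81, 1.67 and 2.20.

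Between the groups, 8 of 84 tested pairs of gene and class (9.52%) passed the test (edgeR quasi-likelihood, adjusted p under 0.05 within the class). Over the 9 classes together 7.57% of all tests of a gene in a class passed, so the count for the 10 genes was near the background. None of the 10 genes passed in monocytes, granulocytes, dendritic cells and erythroid cells, where 0.391%, 0.371%, 0.613% and 0.617% of all genes did. With anemia 2 and anemia 3 left out, 9 of 79 pairs passed (7.82% of all tests). Calls for Id3 in endothelial cells and for Clec4f and Cd209f in hepatocytes were lost. Calls were gained for Cd5l in granulocytes (−1.18 ± 0.27, adjusted p = 0.0397), B cells (−0.83 ± 0.19, adjusted p = 0.0485) and hepatocytes (−0.87 ± 0.21, adjusted p = 0.00243) and for Timd4 in NK and T cells (−1.62 ± 0.39, adjusted p = 0.0422). In these classes the median levels of Cd5l and Timd4 were 0.55% to 0.87% of those in C1q-positive cells. The C1q genes were at 0.53% to 0.72% there. Id3 rose in endothelial cells, from 514 to 684 CPM in controls (median 564) to 665 to 734 in 5 anemic mice, with anemia 5 at 504 as the exception. The change was 0.35 ± 0.10 (adjusted p = 0.0260), where 17.4% of all genes passed, and it did not pass without anemia 2 and anemia 3 (0.30 ± 0.11, adjusted p = 0.0729). In stellate cells Id3 was at 479 to 637 in controls and 420 to 519 in anemic mice (−0.22 ± 0.10, adjusted p = 0.239).

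Nr1h3 rose in hepatocytes, with 36.7 to 51.5 CPM in controls and 43.3 to 68.7 in anemic mice (0.39 ± 0.11, edgeR adjusted p = 0.00751). In that class 39.1% of all genes passed. The call depended on the scaling: without TMM factors, which moves the median of all hepatocyte genes from −0.05 to −0.29, the change was 0.14 and did not pass (adjusted p = 0.315). Fcna fell in stellate cells, from 19.0 to 41.6 in controls to 6.31 to 20.9 in 5 anemic mice, and anemia 3 had 0 UMIs, where 3 UMIs would be 3.62 CPM (−1.19 ± 0.30, adjusted p = 0.0340; 4.36% of all genes passed). This call was lost with sex as a covariate (−1.05 ± 0.34, adjusted p = 0.116) and without any 1 of anemia 4, 5 and 6 and control 3, 4, 5 and 6 (adjusted p = 0.0519 to 0.0910), with changes of −1.05 to −1.21.

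The 5 other calls were lower levels of genes present at about 1% of their macrophage level. They were Cd209f in B cells (−1.96 ± 0.36, edgeR adjusted p = 0.0250; 0.813% of all genes passed), endothelial cells (−1.34 ± 0.33, adjusted p = 0.0132) and hepatocytes (−1.18 ± 0.44, adjusted p = 0.0408). Clec4f was lower in hepatocytes (−0.66 ± 0.25, adjusted p = 0.0446), where without anemia 2 and anemia 3 it did not pass (−0.46 ± 0.23, adjusted p = 0.115), nor did Cd209f (−0.98 ± 0.43, adjusted p = 0.0760), and Vsig4 in NK and T cells (−1.09 ± 0.17, adjusted p = 0.0118; 0.388% of all genes passed). With cells that held any C1q UMI left out, Cd209f in B and endothelial cells, Nr1h3 in hepatocytes and Fcna in stellate cells still passed. Vsig4 in NK and T cells then missed the threshold with a change of similar size (−1.03 ± 0.22, adjusted p = 0.0572), as did Id3 in endothelial cells (0.32 ± 0.10, adjusted p = 0.0555), and Clec4f in hepatocytes was at −0.44 ± 0.28 (adjusted p = 0.226). Cd209f in hepatocytes was then below the count filter. In endothelial cells of anemia 2 and anemia 3 Marco was at 185 and 405 CPM, against 13.8 to 42.5 in the other 10 mice, while Clec4f was at 7.00 and 51.0 against 17.0 to 38.3. As percent of the level in C1q-positive cells, endothelial Marco had a median of 1.51% and a maximum of 8.11%. The summed C1q genes had a median of 2.24% and a maximum of 6.18% there. Marco lay above the C1q genes' percentage in 1 mouse only. Whether this Marco was macrophage RNA was not tested.

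Related genes were read in C1q-positive cells from lists, beside a background of 1.4% of all genes that rose and 1.16% that fell. Of 16 other scavenger and endocytic receptors tested, 1 rose, Msr1, the class A scavenger receptor gene (0.54 ± 0.12, edgeR adjusted p = 0.0330), with 217 to 296 CPM in controls and 273 to 423 in anemic mice. Of 9 receptors and bridging molecules for apoptotic cells, 1 rose, Cd300lf (0.58 ± 0.14, adjusted p = 0.0440), which did not pass without anemia 2 and anemia 3 (0.48, adjusted p = 0.0704). Of 10 liver X receptor targets, 1 rose, the fatty acid desaturase gene Scd2 (1.06 ± 0.23, adjusted p = 0.0297), from 57.4 to 69.7 in controls to 79.4 to 181 in anemic mice. None of 11 Kupffer cell transcription factors, 9 pan-macrophage genes, 10 niche receptor genes and 8 proliferation genes passed. With anemia 2 and anemia 3 left out, the receptor pathway genes Bmpr2 and Smad4 rose, as did Apoe among the liver X receptor targets. The median changes of these 4 lists over all mice were −0.01, 0.17, −0.00457 and 0.11, in that order. Maf, 1 of the 11 transcription factors, was at 245 and 352 in anemia 2 and anemia 3 and at 509 to 637 in the other mice. Of all genes tested, 21.4% lay below the other 10 mice in both. Spic of the same list was not low, with 193 and 201 in anemia 2 and anemia 3 and 133 to 194 in the other mice.

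Of 14 genes of monocyte-derived macrophages 3 rose and none fell. Fabp5, a lipid carrier gene, was at 147 to 228 CPM in controls and 237 to 456 in anemic mice (1.04 ± 0.14, edgeR adjusted p = 0.00212). Itgam, the integrin CD11b gene, was at 25.9 to 52.5 and 53.5 to 152 (1.39 ± 0.28, adjusted p = 0.0200), and S100a6 rose by 1.03 ± 0.24 (adjusted p = 0.0367). Fabp5 and Itgam also passed without anemia 2 and anemia 3, and S100a6 did not (0.81, adjusted p = 0.0803). The monocyte genes Ccr2 and Ly6c2 did not pass. RNA of other cells was also measured: all 7 erythroid genes rose in C1q-positive cells (median change 1.76), their sum being 1122 to 6908 in controls and 4749 to 17598 in anemic mice, and 1 of 5 B cell genes fell, Cd79b. None of 8 hepatocyte, 7 endothelial, 7 granulocyte and 6 NK and T cell genes passed, and without anemia 2 and anemia 3 the hepatocyte genes Apoa1 and Ttr fell.

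The ligands of the Kupffer cell niche were also read in stellate cells, endothelial cells and hepatocytes. In stellate cells 4 of 10 ligand genes fell and none rose, where 2.16% of all genes fell. Bmp10, a BMP ligand gene, was at 30.4 to 52.1 CPM in controls and 2.41 to 15.1 in anemic mice (−1.70 ± 0.21, edgeR adjusted p = 0.000418). The lowest of these values was in anemia 3, where 3 UMIs would be 3.62 CPM. Gdf2, which encodes BMP9, was at 76.1 to 130 and 14.5 to 51.2 (−1.10 ± 0.19, adjusted p = 0.00424). Il34, a ligand of the CSF1 receptor, was at 30.5 to 44.3 and 15.7 to 29.7 (−0.63 ± 0.14, adjusted p = 0.0196). The groups did not overlap for any of these 3 genes, but the share of all genes without overlap was not taken in stellate cells. Bmp2 was the 4th to pass. Without anemia 2 and anemia 3, Bmp10, Gdf2 and Il34 passed and Bmp2 did not. In endothelial cells the Notch ligand gene Jag1 (0.90 ± 0.10, adjusted p = 9.99e-05) and Csf1 (0.51 ± 0.15, adjusted p = 0.0284) rose, which is 2 of 10 ligand genes where 7.93% of all genes rose, and Csf1 did not pass without both mice. None of the 10 ligand genes passed in C1q-positive cells. In hepatocytes 1 of 4 tested ligand genes fell, Jag1 (−1.12 ± 0.36, adjusted p = 0.0186), where 19.9% of all genes fell.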

How the data were processed

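Counts were deposited by the authors as UMIs per gene and cell barcode, 1 table per mouse, without normalization. According to the file headers they were made with Cell Ranger 7.0.0, and the submitters' processing notes name mm10. The kit version differs between labels and methods. As in the study, barcodes were dropped below 500 or above 50000 UMIs or above 50% mitochondrial UMIs. Libraries shared 51 to 121 barcodes per pair. Cells were classed by gates on marker sums, with cuts set from the distributions of these sums. 1332 cells lay within 25% of the C1q cut, 218 in anemia 2, 188 in anemia 3 and 65 to 122 in each other mouse. In C1q-positive cells of anemia 2 and anemia 3 the 3 gate genes were at 0.634 to 0.809 times the control mean. They were at 0.890 to 1.12 times in the other 4 anemic mice. No doublet caller was run, and 3559 of 22797 C1q-positive cells passed a second gate and were kept. Other classes hold cells passing 1 gate. The members and lists were chosen with earlier results of these data known.

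UMIs were summed per mouse and class. Mitochondrial genes, ribosomal protein genes and genes averaging under 5 UMIs were dropped, and the others were tested with edgeR 4.0.16 (quasi-likelihood, TMM) in R 4.3.3 and Benjamini-Hochberg adjustment, where the study used voom. The script was tested on simulated data. DESeq2 1.42.0, limma 3.58.1 and other settings were alternatives. Each mouse is 1 replicate. Levels are not TMM-scaled. Shares of cells carrying a gene are hypergeometric expectations. In these summed counts the depth limits low genes in small classes, and the floor of 3 UMIs covers counting error only. Python 3.11.15 with numpy 2.4.6, scipy 1.17.1 and pandas 2.3.3 was used, and plots were drawn with matplotlib 3.10.9. Named genes were the 10 members, up to 3 called genes per direction and list by smallest p (niche ligands also in other classes), and the 10 genes with the largest share of UMIs in C1q-positive cells. Bmp2, Ccr2, Ly6c2, Maf, Csf1r, Adgre1 and the genes called without anemia 2 and anemia 3 were named after their values were seen. Gene positions are from GENCODE M21 (GRCm38). A gene of the lists that passed without anemia 2 and anemia 3 is not reported here.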

Additional observations from a re-analysis of the deposited data

Results flagged for a closer look

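A group of 6 results was marked because 1 mouse lay far from the other 5 of its group by Dixon's criterion. Of 58 groups of 6 checked, chance would mark about 1 in 20. Control 2 had the highest Timd4 level in C1q-positive cells, 606 CPM against 471 to 509 in the other controls, and the highest share of thinned cells carrying Timd4, 65.8% against 57.4% to 60.0%. The same mouse had the lowest share of cells carrying Cd209f, 26.8% against 44.0% to 53.2%. Anemia 2 had the lowest share carrying Cd5l, 71.2% against 85.1% to 92.7% in the other anemic mice, and the highest Nr1h3 level, 353 CPM against 217 to 261. Anemia 5 had the lowest Id3 level in endothelial cells, 504 CPM against 665 to 734.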

How the results depend on the processing

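For C1q-positive cells, DESeq2 called 1053 genes and a filter of at least 50 UMIs left 270, against 406. Leaving out 1 mouse gave 158 (without control 1) to 491 (without anemia 4), and 0 to 0 of the 10 genes called. Without anemia 2 and anemia 3, and with voom, 1 of the 10 was called, Cd209f. With each cell weighted alike, no test was run, and the changes were further from 0 for several genes. The difference of mean log2 levels was then −1.01 for Clec4f, −0.70 for Vsig4, −0.69 for Folr2, −0.57 for Fcna and −2.15 for Cd209f. In Clec4f-detected cells DESeq2 called 915 genes, leaving out 1 mouse gave 125 (without control 1) to 395 with 0 to 0 of the 9 genes called, and without anemia 2 and anemia 3, a choice made after seeing the data, 1 of the 9 was called. The C1q-positive share differed by −1.68 points with erythroid cells left out of the denominator, and by −4.09 (without anemia 2) to −3.03 with 1 mouse left out. Pairs of gene and other class called numbered 4 with sex as a covariate, 4 with C1q-UMI cells left out, and 3 (without control 4) to 9 with 1 mouse left out. Of 18 alternatives each, the call held in 17 for Vsig4 in NK and T cells, Nr1h3 in hepatocytes and Cd209f in endothelial cells, in 12 for Cd209f in B cells, in 10 for Fcna in stellate cells, in 8 for Clec4f in hepatocytes and in 6 for Id3 in endothelial cells, and in 7 of 17 for Cd209f in hepatocytes, with the direction kept in each. The causes of these differences were not tested.

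Signs turned for changes that had not passed the test. In other classes, leaving out anemia 2 and anemia 3 turned Marco in 8 of 9 classes, from 1.76 to −0.52 in monocytes, for example. Timd4 in C1q-positive cells was −0.0822 without anemia 2 and anemia 3, −0.0902 with voom, −0.0312 with at least 50 UMIs, −0.0787 without TMM, −0.0034 with sex, −0.00232 with the C1q cut halved, −0.0457 without cells of several gates, −0.0646 without cycling cells and −0.000271 at up to 10% mitochondrial UMIs. Without anemia 2 and anemia 3, Marco was −0.0943, Fcna 0.17 and Nr1h3 −0.12, and in Clec4f-detected cells Vsig4 was 0.00173, Timd4 −0.0657, Marco −0.0440, Fcna 0.20 and Nr1h3 −0.0634. With voom, Fcna was 0.0207 and Nr1h3 −0.0712. With each cell weighted alike, Timd4 was −0.119, and Nr1h3 turned as well. With 1 mouse left out, the changes in C1q-positive cells ran from −0.0627 to 0.0944 for Timd4 and −0.0419 to 0.16 for Nr1h3, and in Clec4f-detected cells from −0.0844 to 0.0894 for Cd5l, −0.0323 to 0.19 for Timd4 and −0.29 to 0.0158 for Fcna.

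Replicate numbers did not pair the mice: correlations of same-numbered mice were −0.19 to 0.30, and 0 of 6 correlated best with their own number. With a replicate block 384 genes were called in C1q-positive cells, 276 in Clec4f-detected cells and 7 pairs in other classes, and the share difference of −3.37 points had an exact permutation p of 0.0625. Apart from the fits that left out a single mouse, 197 values were classed as unchanged, 19 as reversed, 13 as weaker and 3 as stronger. The values with each cell weighted alike had no test, so they had no call to keep. Timd4 and Nr1h3 turned with that weighting but were not counted among the 19.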
